A study of Mus musculus with 6 samples.

Results

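The semaphorin, plexin, neuropilin, Slit, Robo, netrin and Unc5 families, 46 genes in all, were compared after knockdown of *Snhg18* in mPASMCs, smooth muscle cells of the mouse pulmonary artery and thus the contractile cells of the wall of the arteries that carry blood to the lungs. The genes were taken by symbol from the protein coding genes of the count table, which holds 55487 genes, 21936 of them protein coding. They are 20 semaphorins, 9 plexins, 2 neuropilins, 3 Slits, 4 Robo receptors, 4 netrins and 4 Unc5 receptors. The mPASMCs were purchased and used at early passage, and were transfected either with a negative control siRNA (si-NC, 3 libraries) or with an siRNA against the long noncoding RNA *Snhg18* (si-*Snhg18*, 3 libraries). The labels give no allele, strain or other agent for either group. The oxygen level and the time after transfection are not given for these libraries in the sources used here.

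Semaphorins, Slits and netrins are ligands first known for steering growing axons, and the same proteins act on blood vessels and on smooth muscle cells, where they turn cell contact and gradients into changes of the actin cytoskeleton, adhesion and migration. Class 3 semaphorins are secreted and mostly signal through a neuropilin that binds the ligand and a plexin that carries the signal into the cell, whereas the membrane semaphorins bind plexins directly. Slits signal through Robo receptors, and netrins through Dcc, neogenin and the Unc5 receptors.

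Each library held between 18097718 and 25988746 counted reads. Levels are given as CPM, the reads of a gene per unit of library size with TMM factors applied, and levels are compared between genes only after division by exon length (CPM per kilobase). A floor of 3 reads corresponds to between 0.115 and 0.164 CPM, and it covers counting error only. Changes are log2 fold changes of si-*Snhg18* over si-NC with their standard errors (SE) from edgeR's quasi-likelihood test, and adjusted p-values are corrected over all 14531 genes tested. The blocked adjusted p comes from the same test with the repeat number of the libraries as a block. *Snhg18* itself was read at 23.5, 22.4 and 22.2 CPM in the si-NC libraries and at 10.6, 11.2 and 9.97 CPM in the si-*Snhg18* libraries. The groups did not overlap, and the log2 fold change was -1.10 ± 0.10 (SE, edgeR adjusted p = 0.00727, blocked 0.000828). It ranged from -1.14 to -1.06 over the fits without 1 library and missed the threshold without si-NC 1, si-NC 3 or si-*Snhg18* 3 (adjusted p between 0.0659 and 0.0703).

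The cells carried the smooth muscle markers *Acta2* (867 CPM in si-NC and 743 CPM in si-*Snhg18* cells, with overlapping groups) and *Tagln* (684 and 481 CPM). These were the 2 highest of 8 per kilobase. *Myh11* (18.6 and 12.2 CPM) and *Des* (11.6 and 3.35 CPM) were far lower. The summed level of 8 smooth muscle markers ranged from 1994 to 2134 CPM in si-NC and from 1373 to 2085 CPM in si-*Snhg18* cells, with 1 of 8 called lower (*Tagln*, edgeR adjusted p = 0.0427) and 5 called lower with the block. Of all tested genes, 3.71% were called lower without the block and 13.6% with it. Among markers of other cells, the sum of 5 fibroblast markers, led by *Col1a1*, ranged from 2285 to 2984 CPM against 1416 to 2230 CPM, and that of 3 pericyte markers from 3.58 to 4.41 CPM against 1.899 to 2.73 CPM. Both sums were lower in every si-*Snhg18* library, and their part in the results below was not tested. Of the 3 pericyte markers only *Kcnj8* was called, lower and with the block only (blocked edgeR adjusted p = 0.035). The fibroblast sum was mostly *Col1a1* (means of 1977 and 1302 CPM), whose own groups overlapped. *Pdgfra* was next (477 and 376 CPM) and was called lower with the block only (blocked edgeR adjusted p = 0.0112, without block 0.189). Of the 5 fibroblast markers 3 had a negative and 2 a positive log2 fold change. Without the block 0 of them were called, and 2 were called lower with it. The sum of 7 endothelial markers lay between 13.1 and 16.3 CPM over all libraries with *Cldn5* at 0. It was mostly *Cdh5* (means of 9.64 and 9.99 CPM). With the block *Tek* was called lower (0.907 and 0.320 CPM, blocked edgeR adjusted p = 0.0341), while *Kdr* had a log2 fold change of 1.04 and passed neither fit. The sum of 6 leukocyte markers lay between 8.77 and 14.4 CPM with *Adgre1* and *Cd3e* at 0. The 6 neural and glial markers summed to 12.9 to 31.7 CPM against 5.10 to 26.3 CPM, mostly from *Tubb3*, which was called lower with the block only (blocked edgeR adjusted p = 0.0298). *Snap25* was low and higher in every si-*Snhg18* library (means of 0.240 and 0.819 CPM), and was called in neither fit. The 4 epithelial markers summed to at most 0.127 CPM, with *Krt5* and *Sftpc* at 0.

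Of the 46 genes, 36 had enough reads to be tested, and 6 of these 36 passed an adjusted p of 0.05 (16.7%), against 7.36% of all tested genes. *Unc5b*, *Plxnd1* and *Plxnb2*, all receptors, were higher in si-*Snhg18* cells, and *Nrp1*, *Sema5a* and *Sema4f* were lower. In all genes, 3.65% were called higher and 3.71% lower. With a change of at least 1.5-fold asked for as well, 4 of the 36 remained, 2 in each direction, against 3.67% of all genes. With the replicate block 17 of the 36 were called (47.2%), 9 higher and 8 lower, against 27.2% of all genes, with 13.6% of all genes in each direction. The groups did not overlap in CPM for 13 of the 36, 7 above and 6 below, against 30.9% of all genes. The members did not move to one side: 18 had a positive and 18 a negative log2 fold change, the median was -0.01 (0.01 over all genes), and the median size of the change was 0.30 (0.25 over all genes). In bulk RNA, fewer cells of a type and less RNA per cell cannot be told apart.

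**Figure D1:**
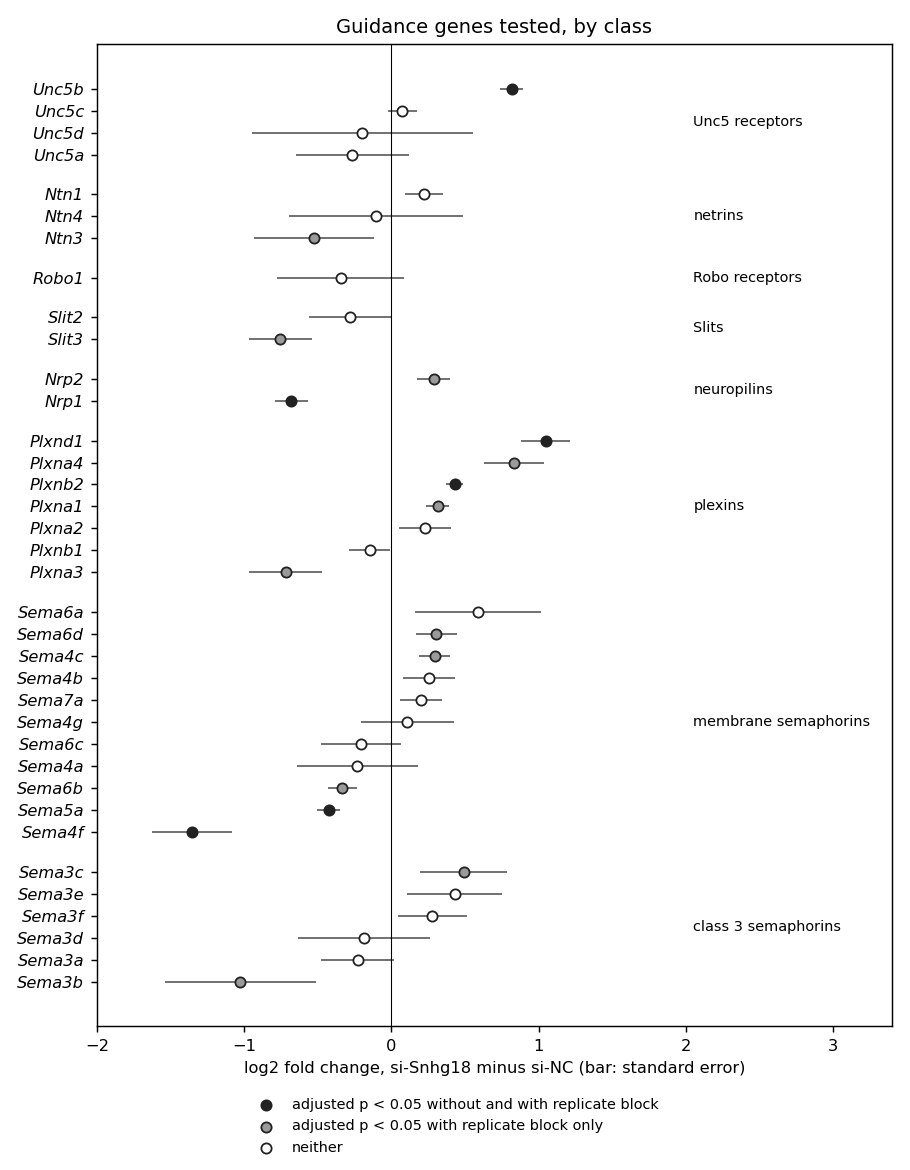
Log2 fold change of each of the 36 tested guidance genes (horizontal axis, si-*Snhg18* minus si-NC, bars are standard errors, 3 libraries per group), grouped by class. Filled points passed an adjusted p of 0.05 without and with the replicate block, grey points only with it. The 6 filled points are *Unc5b*, *Plxnd1* and *Plxnb2* to the right of 0 and *Nrp1*, *Sema5a* and *Sema4f* to the left.

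The calls depended on which libraries were in the fit. Without si-NC 1, si-NC 3 or si-*Snhg18* 3, the edgeR test called 0 of all genes, while 2512, 2731 and 2464 genes had an unadjusted p under 0.05, among them 11, 12 and 10 of the guidance genes. Without si-NC 2 only *Unc5b* was called among them, and without si-*Snhg18* 1 *Unc5b*, *Plxnd1* and *Plxnb2*. Without si-*Snhg18* 2 the number rose to 15, 9 higher and 6 lower, with 3282 calls over all genes. Every one of the 6 genes kept its direction in all 6 of these fits.

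*Sema5a* (ENSMUSG00000022231), a transmembrane semaphorin with thrombospondin repeats, starts beside the targeted gene, on the opposite strand. In GRCm38 *Snhg18* occupies bases 32240565 to 32244662 of chromosome 15 (minus strand) and *Sema5a* bases 32244810 to 32696341 (plus strand), so the genes start in opposite directions with 147 bases between them and no shared exon. The stretch between the start sites, chr15:32244663-32244809, is shown here because any promoter element in it lies upstream of both genes. It was 78.9% G or C and held 5 GC boxes, the motif read by Sp1-family factors, searched as GGGCGG on both strands (CCGCCC on the printed strand) with boxes that share bases counted separately. The upstream sequences of *Unc5b* (chr10:60831582-60831831, minus strand) and *Plxnd1* (chr6:115995006-115995255, minus strand), the receptor genes with the largest called rises, are printed for comparison. All are read 5′ to 3′ on the strand of the semaphorin or receptor gene, GC boxes are in capitals, and all come from the RefSeq promoter table for GRCm38.p6.
Sema5a and Snhg18 gap: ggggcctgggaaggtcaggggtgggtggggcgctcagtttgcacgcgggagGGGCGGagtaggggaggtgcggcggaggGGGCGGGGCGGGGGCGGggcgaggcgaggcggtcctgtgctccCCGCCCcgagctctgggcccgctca
Unc5b upstream: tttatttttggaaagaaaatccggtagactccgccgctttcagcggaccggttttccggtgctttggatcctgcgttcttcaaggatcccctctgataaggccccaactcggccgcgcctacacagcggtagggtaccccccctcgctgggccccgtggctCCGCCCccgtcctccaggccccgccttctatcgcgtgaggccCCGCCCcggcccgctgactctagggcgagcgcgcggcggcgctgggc
Plxnd1 upstream: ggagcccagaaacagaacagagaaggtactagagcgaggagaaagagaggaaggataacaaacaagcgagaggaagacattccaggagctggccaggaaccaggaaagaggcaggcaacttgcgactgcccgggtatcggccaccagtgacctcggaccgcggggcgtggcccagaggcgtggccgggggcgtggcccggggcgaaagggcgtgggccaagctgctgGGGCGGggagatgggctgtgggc
The 250 bases upstream of *Unc5b* held 2 GC boxes and those of *Plxnd1* 1. A GC box is common: 32.7% of all 250-base upstream windows of the table held at least 1, as did 56.8% of the windows of tested genes. Among the windows of tested guidance genes 78.9% held at least 1 box. Of them 18.4% held 4 or more, against 8.11% of the windows of all tested genes. Their median G or C content was also higher, 64.6% against 59.6%. For 8 guidance genes no window was available, and some genes had more than 1. The windows of *Slit3*, *Nrp2* and *Unc5a* held 6, 5 and 5, and 232 of the 250 bases of the *Slit3* window lie in annotated exons. Of 147-base windows, 28.4% of all and 50.7% of those of tested genes held at least 1 box, and 0.828% and 1.65% held 5 or more. Such a match describes the letters of the window and not a bound site.

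*Sema5a* was read at 333, 332 and 354 CPM in the si-NC libraries and at 234, 270 and 255 CPM in the si-*Snhg18* libraries. Every si-*Snhg18* library lay below every si-NC library. The level fell to 74.4% of that in si-NC cells (means of 340 ± 12.4 and 253 ± 18.1 CPM with their SDs), which gave a log2 fold change of -0.43 ± 0.08 (SE, edgeR adjusted p = 0.0278, blocked 0.00361). Over the fits without 1 library it ranged from -0.48 to -0.37 and passed only without si-*Snhg18* 2 (adjusted p = 0.0103, and 0.0672 to 0.139 in the other fits). Both genes of the locus were lower, *Snhg18* to 46.7% of its level in si-NC cells. The ratio of *Sema5a* to *Snhg18*, each in CPM per kilobase and chosen after the values had been seen, was 1.95, 2.04 and 2.19 in si-NC and 3.02, 3.32 and 3.51 in si-*Snhg18* cells (2.06 ± 0.124 against 3.29 ± 0.251, SD, n = 3, two-sided exact permutation p = 0.1, the smallest that 3 against 3 libraries allow). With all annotated exons of *Sema5a* merged (18686 bases, against 10809 in the deposited table) the ratio was 1.19 ± 0.072 and 1.9 ± 0.145. The higher ratio follows from the larger fall of *Snhg18*, the target of the siRNA, so its p-value adds no support. The change of *Sema5a* and that of *Snhg18* were measured in the same libraries, and whether they are linked was not tested.

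**Figure D2:**
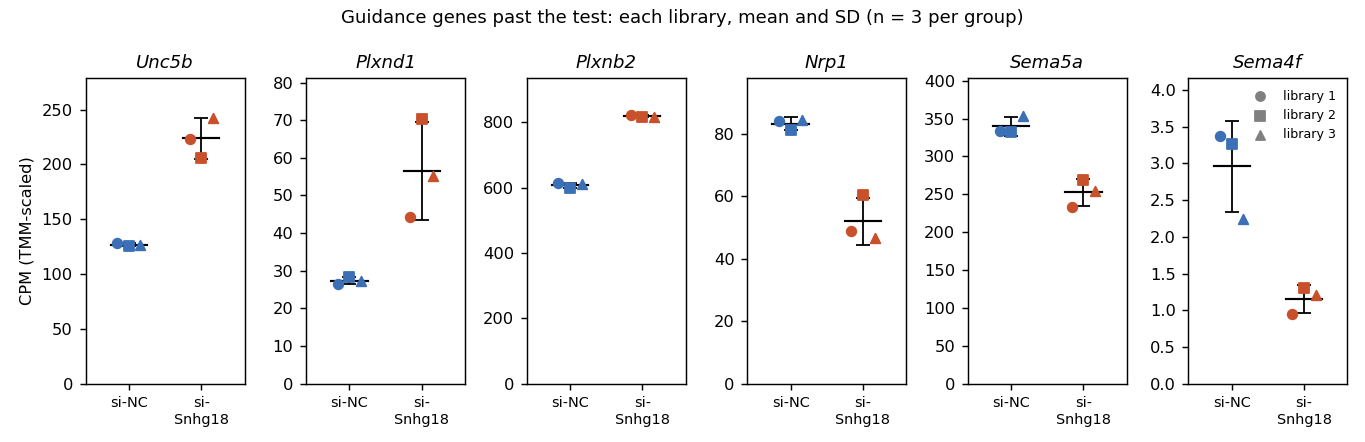
CPM scaled by TMM (vertical axes, from 0) of the 6 guidance genes called without and with the replicate block, for each library (circle, square and triangle for libraries 1, 2 and 3), with the mean and SD of 3 libraries. In each panel the si-NC and si-*Snhg18* libraries do not overlap, as for *Unc5b* between 126 and 129 CPM in si-NC and between 206 and 243 CPM in si-*Snhg18* cells.

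The class 3 semaphorins, the secreted ligands, showed no call without the block when all libraries were in the fit. Without si-*Snhg18* 2, unblocked edgeR called *Sema3b* lower (log2 fold change -1.67, adjusted p = 0.0442), among 3282 of all genes. Without both libraries numbered 2, chosen after seeing the data, it called *Sema3a*, *Sema3c* and *Sema3d*, among 4020 of all genes. The counts that follow are from fits with all libraries. Of 7 genes, 6 were tested, edgeR and DESeq2 without the block called 0 of them, and for 0 of them the edgeR p before adjustment was under 0.05. The blocked edgeR test called 2 of the 6, in opposite directions, and its p before adjustment was under 0.05 for 6 of 6. Such a p was common in the blocked fit, at 25 of the 36 tested guidance genes and 5811 of all 14531 tested genes. *Sema3a*, a ligand of *Nrp1*, was read at 158, 201 and 147 CPM in si-NC and at 103, 197 and 131 CPM in si-*Snhg18* cells, a log2 fold change of -0.23 that did not pass (edgeR adjusted p = 0.612, blocked 0.11). It was lower in 3 of 3 same-numbered pairs. With the block *Sema3c*, which binds both neuropilins, was called higher (65.1, 92.8 and 59.6 CPM against 74.8, 148 and 83.0 CPM, blocked edgeR adjusted p = 0.0115, without block 0.354, DESeq2 with block 0.000912). The libraries overlapped between groups, but each si-*Snhg18* library exceeded the si-NC library of the same number. *Sema3b* was called lower with the block at a low level (1.94 to 0.935 CPM, blocked edgeR adjusted p = 0.045, without block 0.276), but not by DESeq2 with the block (adjusted p = 0.104). *Sema3d*, *Sema3e* and *Sema3f*, the last a ligand of *Nrp2*, had log2 fold changes of -0.19, 0.43 and 0.28 and passed neither fit. *Sema3e* and *Sema3f* were higher in 3 of 3 pairs and *Sema3d* in 1.

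Per kilobase, the class 3 semaphorins summed to 103 ± 21.7 CPM in si-NC and 101 ± 35.6 CPM in si-*Snhg18* cells (mean ± SD, n = 3). *Sema3a* made up 62.9 ± 2.39% of that sum in si-NC and 54.7 ± 1.03% in si-*Snhg18* cells, and *Sema3c* 12.8 ± 0.43% and 18.3 ± 1.35%. These levels divide CPM by the exon length given in the deposited table, which for *Sema3a* is 2624 bases, against 13868 bases in all its merged exons in the GENCODE vM21 annotation. With the merged exons, an alternative chosen after seeing the data, the shares were 30.8 ± 2.16% and 24.0 ± 0.875% for *Sema3a* and 25.4 ± 0.454% and 32.7 ± 1.99% for *Sema3c*, so which gene stood first in si-*Snhg18* cells depended on the length. The relative change of 1 gene, or of a ratio of genes, between the groups does not depend on it. These shares were chosen after the values had been seen and carry no test.

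Both Slits that were expressed had lower means in si-*Snhg18* cells. *Slit3* was read at 196, 269 and 208 CPM in si-NC and at 109, 174 and 116 CPM in si-*Snhg18* cells. The groups did not overlap, with the library numbered 2 the highest of each. Its log2 fold change was -0.75 ± 0.21 (SE), which missed the threshold without the block (edgeR adjusted p = 0.0861) and passed with it (0.000753). It also passed in DESeq2 (adjusted p = 0.0103) and without si-*Snhg18* 2 (-1, adjusted p = 0.00927). *Slit2*, at 260, 370 and 259 CPM against 167, 347 and 219 CPM, overlapped between groups and passed neither fit (log2 fold change -0.28, edgeR adjusted p = 0.588, blocked 0.052). DESeq2 with the block called it lower (adjusted p = 0.0221). *Slit1* had between 0 and 2 reads per library.

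The ratio of *Slit3* to *Slit2* levels per kilobase, chosen after the values had been seen, was 1.44, 1.38 and 1.52 in si-NC and 1.24, 0.956 and 1.01 in si-*Snhg18* cells (1.45 ± 0.0711 against 1.07 ± 0.15, SD, n = 3, two-sided exact permutation p = 0.1). All 3 ratios of si-*Snhg18* cells lay below those of si-NC cells. With the merged exons, of which *Slit2* has 25433 bases against 9960 in the table, the ratio was 3.19 ± 0.156 and 2.35 ± 0.331.

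Among the netrins edgeR and DESeq2 without the block called 0 of 3 tested, and for 0 of them the edgeR p before adjustment was under 0.05. The blocked edgeR test called 1, *Ntn3*. *Ntn1*, a ligand of Unc5 receptors and neogenin, was read at 23.7, 24.3 and 23.0 CPM in si-NC and at 28.8, 22.9 and 31.1 CPM in si-*Snhg18* cells. Library 2 of the si-*Snhg18* group lay below all si-NC libraries and the other two above them (log2 fold change 0.22, edgeR adjusted p = 0.344), and without that library *Ntn1* was called higher (0.33, adjusted p = 0.0439). *Ntn3* was lower with the block (7.02 to 4.85 CPM, blocked edgeR adjusted p = 0.0379, without block 0.471), but was not called by DESeq2 with the block (adjusted p = 0.101). Of its merged exon bases 1.74% are shared with *Tbc1d24* on the same strand, so the division of reads between them is uncertain. *Ntn4*, a laminin-related netrin of basement membranes, had no stable direction (6.67 to 6.18 CPM, log2 fold change -0.10, and 0.32 without si-NC 2).

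Of the 13 membrane semaphorins, 11 were tested and 2 called, both lower: *Sema5a*, described above, and *Sema4f*. *Sema4f* was scarce, with 78, 80 and 53 reads (3.37, 3.27 and 2.25 CPM) in si-NC and 24, 34 and 22 reads (0.95, 1.31 and 1.21 CPM) in si-*Snhg18* cells. No library overlapped between groups. Its log2 fold change of -1.36 ± 0.27 (SE, edgeR adjusted p = 0.0371, blocked 0.0128) was the largest in size among the called guidance genes. It ranged from -1.52 to -1.23 over the fits without 1 library and passed only without si-*Snhg18* 2 (adjusted p = 0.0241, and 0.101 to 0.169 in the others).

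With the block 3 more membrane semaphorins were called, in both directions. *Sema4c*, a ligand of *Plxnb2*, rose from 30.4 ± 2.78 to 37.3 ± 3.11 CPM (SD, n = 3, blocked adjusted p = 0.033, without block edgeR 0.153), and *Sema6d*, a ligand of *Plxna1*, from 55.5 ± 5.05 to 68.6 ± 11.2 CPM (SD, n = 3, blocked edgeR adjusted p = 0.0303, without block 0.227). *Sema6b* fell from 24.2 ± 1.25 to 19.2 ± 1.34 CPM (SD, n = 3, blocked edgeR adjusted p = 0.0289, without block 0.0961). The si-*Snhg18* libraries of *Sema4c* all lay above and those of *Sema6b* all below si-NC, while those of *Sema6d* overlapped. DESeq2 with the block called only *Sema6d* of the 3 (adjusted p = 0.0453, against 0.083 for *Sema4c* and 0.0968 for *Sema6b*). Of the merged exon bases of *Sema4c*, 7.27% overlap an opposite-strand gene that had at most 24 reads. *Sema4b* (79.3 to 94.7 CPM) and the lipid-anchored *Sema7a* (58.6 to 67.5 CPM), the most abundant of them per kilobase after *Sema5a* in si-NC cells, passed neither fit. Without si-*Snhg18* 2 unblocked edgeR called *Sema4b* higher (log2 fold change 0.43, adjusted p = 0.0313). *Sema6a*, *Sema6c*, *Sema4g* and *Sema4a* had log2 fold changes of 0.59, -0.20, 0.11 and -0.23 and passed neither, and that of *Sema6a* was -0.0098 without si-*Snhg18* 2.

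The plexins, the signalling receptors, held 2 of the 3 calls with higher levels. *Plxnb2*, a receptor of class 4 semaphorins, was the most abundant gene of all 46 per kilobase with either choice of exon length (93.6 ± 1.16 CPM per kilobase in si-NC and 126 ± 0.515 in si-*Snhg18* cells with the lengths of the table, SD, n = 3). Its libraries read 614, 600 and 611 CPM in si-NC and 824, 818 and 818 CPM in si-*Snhg18* cells. The spread within each group was far smaller than the gap between them. The log2 fold change was 0.43 ± 0.06 (SE, edgeR adjusted p = 0.0133, blocked 0.00174), and 0.42 to 0.44 over the fits without 1 library. It missed the threshold without si-NC 1, si-NC 2, si-NC 3 or si-*Snhg18* 3 (adjusted p between 0.0621 and 0.105).

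*Plxnd1*, a receptor that binds *Sema3e* directly and takes part in the patterning of vessels, showed the largest called rise. It was read at 26.4, 28.4 and 27.3 CPM in si-NC and at 44.2, 70.2 and 55.2 CPM in si-*Snhg18* cells. The si-*Snhg18* libraries varied more among themselves than the si-NC libraries, but all lay above them. The mean rose 2.07-fold (27.4 ± 0.981 to 56.5 ± 13.1 CPM, SD, n = 3), a log2 fold change of 1.05 ± 0.17 (SE, edgeR adjusted p = 0.0214, blocked 0.00135). Over the fits without 1 library it ranged from 0.86 to 1.197 and missed the threshold without si-NC 1, si-NC 2, si-NC 3 or si-*Snhg18* 3 (adjusted p between 0.0791 and 0.122). *Sema3e* had a log2 fold change of 0.43 that did not pass (edgeR adjusted p = 0.454, blocked 0.0567).

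Of the class A plexins, the partners of neuropilins, 3 were called with the block, but not all in the same direction. *Plxna1* was read at 344, 377 and 328 CPM in si-NC and at 411, 453 and 439 CPM in si-*Snhg18* cells, with no overlap (log2 fold change 0.31, edgeR adjusted p = 0.0665, blocked 0.0088). *Plxna4* rose from 5.31, 5.51 and 3.64 CPM to 8.39, 7.81 and 9.64 CPM with the block (log2 fold change 0.83, edgeR adjusted p = 0.0608, blocked 0.0216). Both also passed in DESeq2 without the block (adjusted p = 0.00894 and 0.00457). *Plxna3* moved the other way, from 20.5, 25.6 and 18.8 CPM to 9.58, 17.8 and 12.1 CPM (log2 fold change -0.72, edgeR adjusted p = 0.139, blocked 0.007), and its groups did not overlap. *Plxna2* and *Plxnb1* had log2 fold changes of 0.23 and -0.15 and passed neither fit. Unblocked edgeR called *Plxna2* without si-*Snhg18* 2 and without both libraries numbered 2.

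Per kilobase the plexins summed to 145 ± 2.51 CPM in si-NC and 190 ± 3.52 CPM in si-*Snhg18* cells (mean ± SD, n = 3). *Plxnb2* made up 64.8% and 66.3% of the sum and *Plxna1* 26.7% and 25.3%. The share of *Plxnd1* was 2.74 ± 0.0815% and 4.29 ± 0.912%, and that of *Plxna3* 2.15 ± 0.319% and 0.991 ± 0.3%. These sums and shares were chosen after the values had been seen.

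**Figure D3:**
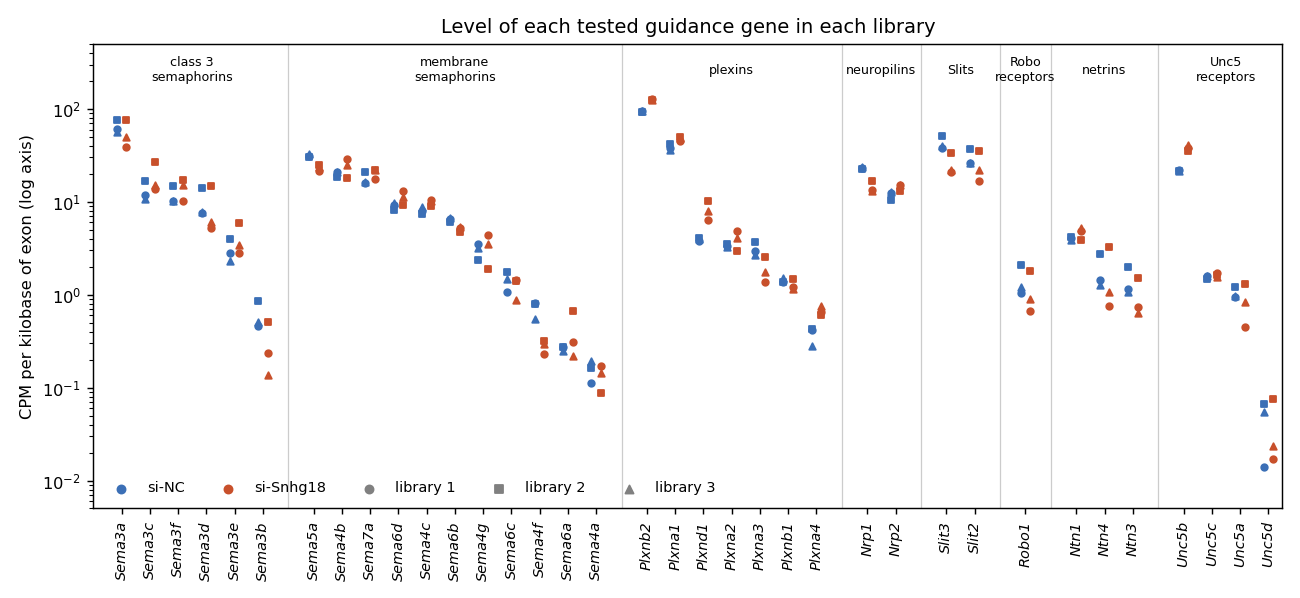
Level of each tested guidance gene in CPM per kilobase of exon, with the exon lengths of the deposited table (vertical log axis) in every library, si-NC in blue and si-*Snhg18* in red, with genes ordered within each class by their mean level in si-NC. *Plxnb2* stands highest, at 93.6 in si-NC and 126 in si-*Snhg18* cells, and *Unc5b* stands apart from the other Unc5 receptors.

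The neuropilins, which bind class 3 semaphorins and VEGF, had changes of opposite sign. *Nrp1* was read at 84.2, 81.0 and 84.5 CPM in si-NC and at 48.8, 60.5 and 46.7 CPM in si-*Snhg18* cells. Every si-*Snhg18* library lay well below the si-NC libraries. The level fell to 62.5% (83.2 ± 1.93 to 52.0 ± 7.46 CPM, SD, n = 3), a log2 fold change of -0.68 ± 0.11 (SE, edgeR adjusted p = 0.0215, blocked 0.0027). Over the fits without 1 library it ranged from -0.81 to -0.61, and it passed only without si-*Snhg18* 2 (adjusted p = 0.00432, and 0.0672 to 0.118 in the others). *Nrp2* was read at 84.4, 69.6 and 85.5 CPM in si-NC and at 102, 87.1 and 103 CPM in si-*Snhg18* cells. It was called higher with the block only (log2 fold change 0.29, edgeR adjusted p = 0.174, blocked 0.0102), and its groups did not overlap.

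The ratio of *Nrp1* to *Nrp2* per kilobase, chosen after the values had been seen, was 1.86, 2.17 and 1.85 in si-NC and 0.89, 1.3 and 0.849 in si-*Snhg18* cells (1.96 ± 0.184 against 1.01 ± 0.249, SD, n = 3, two-sided exact permutation p = 0.1). The groups of *Nrp1* and of *Nrp2* did not overlap, in opposite directions, so this ratio had to separate them and its p-value adds no support. *Nrp1* made up 66.2 ± 2.03% of neuropilin transcripts per kilobase in si-NC and 49.8 ± 5.8% in si-*Snhg18* cells. The deposited table gives *Nrp1* 3597 bases of exon, against 9785 in its merged exons. With the merged exons the ratio was 1.27 ± 0.119 and 0.656 ± 0.161 and the share 55.9 ± 2.25% and 39.2 ± 5.61%. In si-*Snhg18* cells both genes stood near the same level with the lengths of the table, and *Nrp2* stood higher with the merged exons. The lower ratio in every si-*Snhg18* library did not depend on the length. With the lengths of the table the sum of both was 35 ± 1.86 CPM per kilobase and 28.9 ± 0.77 CPM per kilobase.

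**Figure D4:**
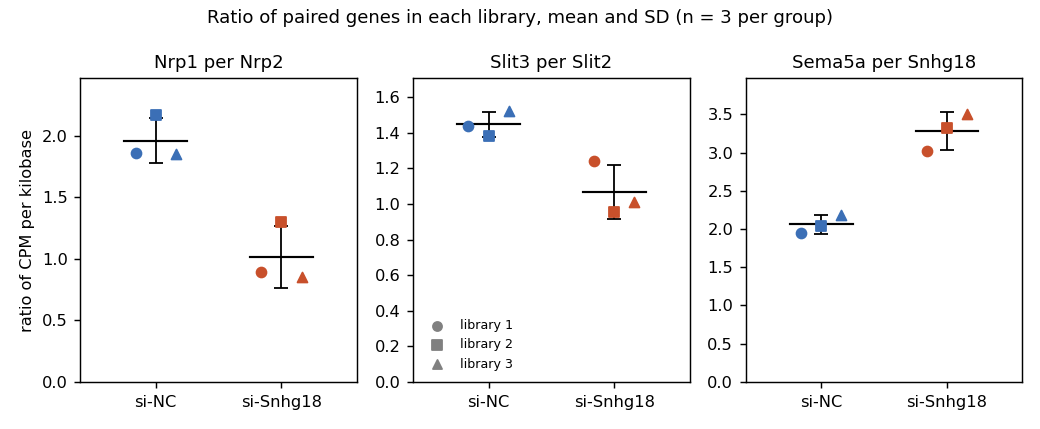
Ratio of 2 genes' levels per kilobase (vertical axes, from 0) in each library, with the mean and SD of 3 libraries per group. *Nrp1* per *Nrp2* and *Slit3* per *Slit2* are lower in all si-*Snhg18* libraries, and *Sema5a* per *Snhg18* is higher, 3.29 against 2.06.

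Of the Robo receptors of Slits only *Robo1* was tested, and it did not pass. It was read at 6.82, 13.6 and 7.92 CPM in si-NC and at 4.43, 11.96 and 5.92 CPM in si-*Snhg18* cells, where the libraries numbered 2 stood highest (log2 fold change -0.34, and 0.013 without si-NC 2). *Robo1* made up 96.1% of Robo transcripts per kilobase in si-NC cells. *Robo2* had at most 9 reads and *Robo3* at most 8 in a library, and *Robo4*, known from endothelium, had 0 reads in all 6 libraries. Per kilobase the Slits summed to 72.7 ± 13.8 CPM and the Robo receptors to 1.49 ± 0.566 CPM in si-NC cells (mean ± SD, n = 3), and with merged exons to 48.6 ± 8.9 and 0.608 ± 0.234 CPM.

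Among the Unc5 receptors of netrins *Unc5b*, which is also known from vessels, was called and the other 3 were not. It was read at 129, 126 and 126 CPM in si-NC and at 223, 206 and 243 CPM in si-*Snhg18* cells. All si-*Snhg18* libraries lay far above the narrow range of si-NC. The mean rose 1.76-fold (127 ± 1.57 to 224 ± 18.5 CPM, SD, n = 3), a log2 fold change of 0.82 ± 0.08 (SE, edgeR adjusted p = 0.00761, blocked 0.00066), the smallest p-value among the guidance genes. It ranged from 0.76 to 0.87 over the fits without 1 library and missed the threshold without si-NC 1, si-NC 3 or si-*Snhg18* 3 (adjusted p between 0.0659 and 0.07). *Unc5c* had 14.9 ± 0.682 CPM in si-NC and 15.7 ± 0.639 CPM in si-*Snhg18* cells (mean ± SD, n = 3), a log2 fold change of 0.08 ± 0.10 (SE). *Unc5a* and *Unc5d* were scarce and had log2 fold changes of -0.26 and -0.20, with overlapping groups. Per kilobase *Unc5b* was 14 ± 0.524 times the level of *Unc5c* in si-NC and 23.4 ± 2.68 times in si-*Snhg18* cells (mean ± SD, n = 3). This ratio was chosen after the values had been seen. As *Unc5c* changed little, it restates the change of *Unc5b* and adds no support. With merged exons, 19135 bases for *Unc5c* against 9646 in the table, it was 26.0 ± 0.975 and 43.6 ± 4.99 times.

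The other 10 genes failed the filter on low counts. Besides *Slit1* and the Robo receptors named above, *Sema3g* had 2 to 10 reads in a library, *Sema4d*, a ligand of *Plxnb1*, 0 to 2, *Sema5b* 0 to 5, *Plxnb3* 2 to 10, *Plxnc1*, the receptor of *Sema7a*, 1 to 7, and *Ntn5* 0 to 5. At this depth no difference was detectable for them.

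The libraries numbered 2 were often the highest of both groups. In both groups at once, library 2 was the highest of its 3 libraries for 6 of 6 tested class 3 semaphorins, 2 of 2 Slits, *Robo1*, 2 of 3 netrins, 2 of 4 Unc5 receptors, 3 of 7 plexins, 1 of 11 membrane semaphorins and 0 of 2 neuropilins, and no difference between families was tested. Over the 36 tested genes this was so for 17 (47.2%), against 32.2% of all tested genes. *Sema3d* shows the size of it: the libraries numbered 2 had 89.0 and 92.4 CPM, and the other libraries between 32.7 and 49.0 CPM. *Plxnb2* lay between 600 and 614 CPM in all si-NC libraries and between 818 and 824 CPM in all si-*Snhg18* libraries. With both libraries numbered 2 left out, an alternative chosen after seeing the data, 20 guidance genes were called, 11 higher and 9 lower, and 4020 of all genes. The labels say nothing of what sets the libraries numbered 2 apart, and its cause was not tested.

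**Figure D5:**
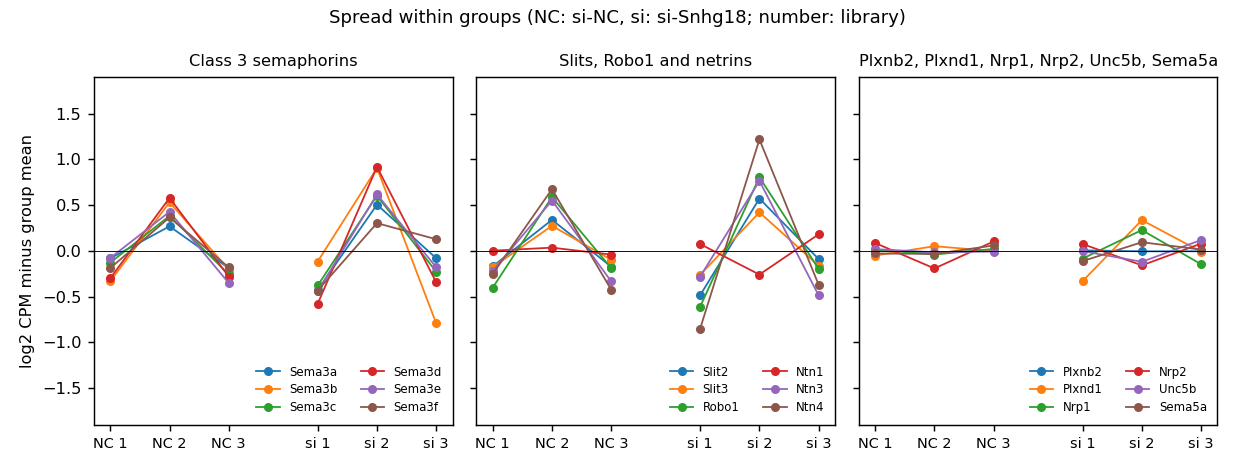
Log2 CPM of each library minus the mean of its group (vertical axis) for the libraries of si-NC (NC 1 to NC 3) and si-*Snhg18* (si 1 to si 3), with a line per gene. Class 3 semaphorins and the Slits peak in library 2 of both groups, while *Plxnb2* stays close to the mean in all of them.

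Other genes of these pathways were read from a list of 28 co-receptors and other binding partners and a list of 40 intracellular effectors. Of the binding partners 21 were tested and 1 was called: *Itgb1*, the integrin beta 1 subunit, fell from a mean of 2655 to 1979 CPM (log2 fold change -0.42, edgeR adjusted p = 0.0216, blocked 0.00272). With the block 8 were called, 2 higher and 6 lower. The netrin receptor gene *Neo1* (neogenin) was among those called with the block, at 172, 143 and 176 CPM in si-NC and 250, 179 and 235 CPM in si-*Snhg18* cells (log2 fold change 0.44, edgeR adjusted p = 0.127, blocked 0.00335). *Flrt3*, a membrane protein that binds Unc5 receptors, was the other called higher, at 0.842 and 3.10 CPM (log2 fold change 1.87, edgeR adjusted p = 0.051, blocked 0.0128). *Dcc* had no read. *Neo1* and *Flrt3* are named here after their values were seen.

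Of the effectors 38 were tested and 6 were called, 5 higher and 1 lower. *Evl*, an actin regulator of the Ena/VASP family, was read at 43.3, 47.7 and 46.7 CPM in si-NC and at 66.0, 67.6 and 67.2 CPM in si-*Snhg18* cells (log2 fold change 0.54, edgeR adjusted p = 0.0125). *Dpysl2*, which relays *Sema3a* signals to microtubules, was read at 34.7, 34.6 and 36.7 CPM against 53.8, 50.4 and 49.2 CPM (0.53, edgeR adjusted p = 0.0154). The groups of both genes were far apart. *Mical2*, an enzyme that oxidizes actin, rose from 607 to 846 CPM (log2 fold change 0.48, edgeR adjusted p = 0.0211), the kinase gene *Abl1* from 253 to 317 CPM (0.33, 0.0318), and *Srgap3*, a GTPase activator that binds Robo, from 107 to 155 CPM (0.53, 0.0368). *Farp1*, a GTPase exchange factor named after its values were seen, fell from 281 to 220 CPM (log2 fold change -0.35, edgeR adjusted p = 0.0377). The 6 were also called with the block, among 13 effectors in all, 12 higher and 1 lower. Over both lists 7 of 59 tested genes were called (11.9%, against 7.36% of all genes) and 21 with the block (35.6%, against 27.2%), and the fits without 1 library called 0 (without si-NC 1, si-NC 2, si-NC 3 or si-*Snhg18* 3), 2 (without si-*Snhg18* 1) or 15 (without si-*Snhg18* 2). The median log2 fold change was -0.20 for the binding partners and 0.11 for the effectors, against 0.01 for all genes.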

How the data were processed

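Sequenced were 3 si-NC and 3 si-*Snhg18* libraries of transfected mPASMCs, prepared by the authors with a stranded mRNA kit. The table the authors deposited gives raw counts for each gene, not normalized, with exon lengths and positions on GRCm38.p6 per the file headers. The submitters' processing notes name HISAT2 and mm10, and the counting program and its strand setting are not given in the sources used here. No column belonged to other samples.

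The test was edgeR 4.0.16 under R 4.3.3 (filterByExpr with a minimum count of 10, TMM, glmQLFit and glmQLFTest, Benjamini-Hochberg adjustment over 14531 genes). The common biological coefficient of variation was 0.218. Scripts were tested on simulated data. The members and lists were chosen with earlier results of these data known. Named are *Snhg18*, *Sema5a*, members called in either fit, other tested members with a log2 fold change of at least 0.5 in size or among the 3 most abundant of their class, members failing the filter, called partner genes (at most 5 per list) and the leading markers. The remaining members are named so that each is accounted for.

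Libraries carry repeat numbers 1 to 3 in their labels, which do not say whether same-numbered libraries belong together. Deviations of same-numbered libraries from their group means correlated over genes at 0.41, 0.742 and 0.359, although si-*Snhg18* 1 correlated best with si-NC 3 (0.497), so blocked values stand beside those without the block. Separate cultures are not stated, so p-values measure the spread between these libraries, which may be technical. Alternatives were DESeq2 1.42.0, limma-voom (limma 3.58.1), RLE factors, library totals, other filters, the block and leaving out each library. DESeq2 with the block and leaving out both libraries numbered 2 were added after seeing the data, as were levels per kilobase with merged GENCODE vM21 exons in place of the table's exon lengths.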

Additional observations from a re-analysis of the deposited data

How the results depend on the processing

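The same 6 guidance genes were called with RLE factors, library totals, no filter on low counts, a minimum count of 30 and limma-voom, and the genes named by the rule kept their direction under every alternative that used all libraries or left out both numbered 2. DESeq2 called 5 higher and 4 lower, 11 partner genes and 2069 of all genes. The replicate block called 9 higher and 8 lower, 21 partner genes and 3954 of all genes, added the calls given in the report, and lost none of the 6 guidance or 7 partner calls made without it. DESeq2 with the block called 8 higher and 6 lower (not *Sema3b*, *Sema4c*, *Sema6b* or *Ntn3*), 21 partner genes and 3102 of all genes, and without both libraries numbered 2 the calls were 11 higher, 9 lower, 21 and 4020. Leaving out 1 library at a time gave 0 to 9 higher, 0 to 6 lower, 0 to 15 partner genes and 0 to 3282 of all genes, with 2464 to 5749 genes at an unadjusted p under 0.05. *Sema5a* then ranged from -0.48 to -0.37 in log2 fold change. Directions turned for *Sema6a* (-0.0098 without si-*Snhg18* 2, at most 0.87), *Robo1* (0.013 without si-NC 2, at lowest -0.88) and *Ntn4* (at lowest -1.02, 0.32 without si-NC 2, 0.25 without si-*Snhg18* 1 and 0.14 without si-*Snhg18* 3). The partner gene *Abl1* lost its call with no filter (edgeR adjusted p = 0.0651). No scaling moved the median log2 fold change of all genes beyond 0.02. The cause of these differences was not tested. Depth limits the 10 genes under the filter, and 3 libraries per group cannot give an exact permutation p under 0.1.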
